A study of Drosophila melanogaster with 3 samples.

Results

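The mitochondrial ribosomal proteins are nuclear gene products that build the large and small subunits of the ribosome inside mitochondria. They were taken here as the genes whose symbol is mRpL or mRpS followed by a digit and whose probe gave a log2 ratio on every array, which left 59 genes, 40 of the large and 19 of the small subunit, among the 13026 features tested. Each of the 59 was measured by a single probe. The gene table lists 73 such symbols, 47 of the large and 26 of the small subunit. Of the remaining 14, the probe of mRpL54 lacked a value on 1 array, the probe of mRpL47 was also assigned to Rlb1, and no probe was named for the other 12.

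RNA was taken from the midgut of Drosophila melanogaster larvae that carried the allele pair EcRM554fs/EcRV559fs and so lacked every isoform of the ecdysone receptor EcR. They also carried hs-EcR-B230.1, a transgene that supplies EcR after heat shock, used to bring them through earlier larval life, and were collected at stage 2a, where they arrest late in the last larval instar. The 3 mutant samples, replicates 3, 4 and 6, were independent according to the labels, and each was hybridised on 1 array against the same reference, a pool of Canton S wild-type midgut RNA of various stages. A wild-type midgut matched for stage was not hybridised, so genotype, stage, strain and heat shock treatment cannot be told apart in a ratio. Negative log2 ratios below mean less transcript in the mutant. This direction is the likely one, from the channel order in the labels, and every sign would turn if the ratio ran the other way. All arrays had the same dye orientation, so an effect of the dye on a gene would repeat on every array. It cannot be told apart from a difference of the mutant. The values are ratios, so neither the level of a gene nor the identity of the tissue can be read from them, and fewer cells of a type cannot be told apart from less RNA per cell.

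The mitochondrial ribosome translates the few proteins encoded by mitochondrial DNA, all of them subunits of the respiratory chain and the ATP synthase. Its RNA comes from the mitochondrial genome, while its proteins are made in the cytosol and imported, so the 2 genomes have to supply 1 particle. Part of the proteins belong to families shared with bacterial ribosomes, and the others were added in the mitochondrial lineage. The larval midgut is an absorptive epithelium that is broken down at metamorphosis after the ecdysone pulse.

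Transcripts of the mitochondrial ribosome were lower in the mutant as a group, by small amounts. Of the 59 genes, 36 were lower, 1 was higher and 22 did not pass the test, which was limma against 0 at a Benjamini-Hochberg adjusted p under 0.05 over all features. Over all features tested, 23.7% were called lower and 13.4% higher (37.0% in either direction). The median log2 ratio was -0.23 for the mitochondrial ribosomal proteins and 0.0081 for all features, and a median of -0.23 is a 1.17-fold lower ratio. On all 3 arrays the ratio was below 0 for 50 of the 59 genes, against 33.7% of all features. The sizes were narrow. Only 4 members were lower by at least 1.5-fold, a limit that 9.50% of all features passed as lower, and 0 of the 37 called members reached 2-fold, which 6.09% of all features did in either direction. In the order of all features from lowest to highest, 0 members lay in the lowest 5%, 4 in the lowest 10% and 38 in the lowest 25%. The members' means had an SD of 0.20 among themselves, and the median SD of 1 member between arrays was 0.096, close to the 0.104 of all features.

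**Figure D1:**
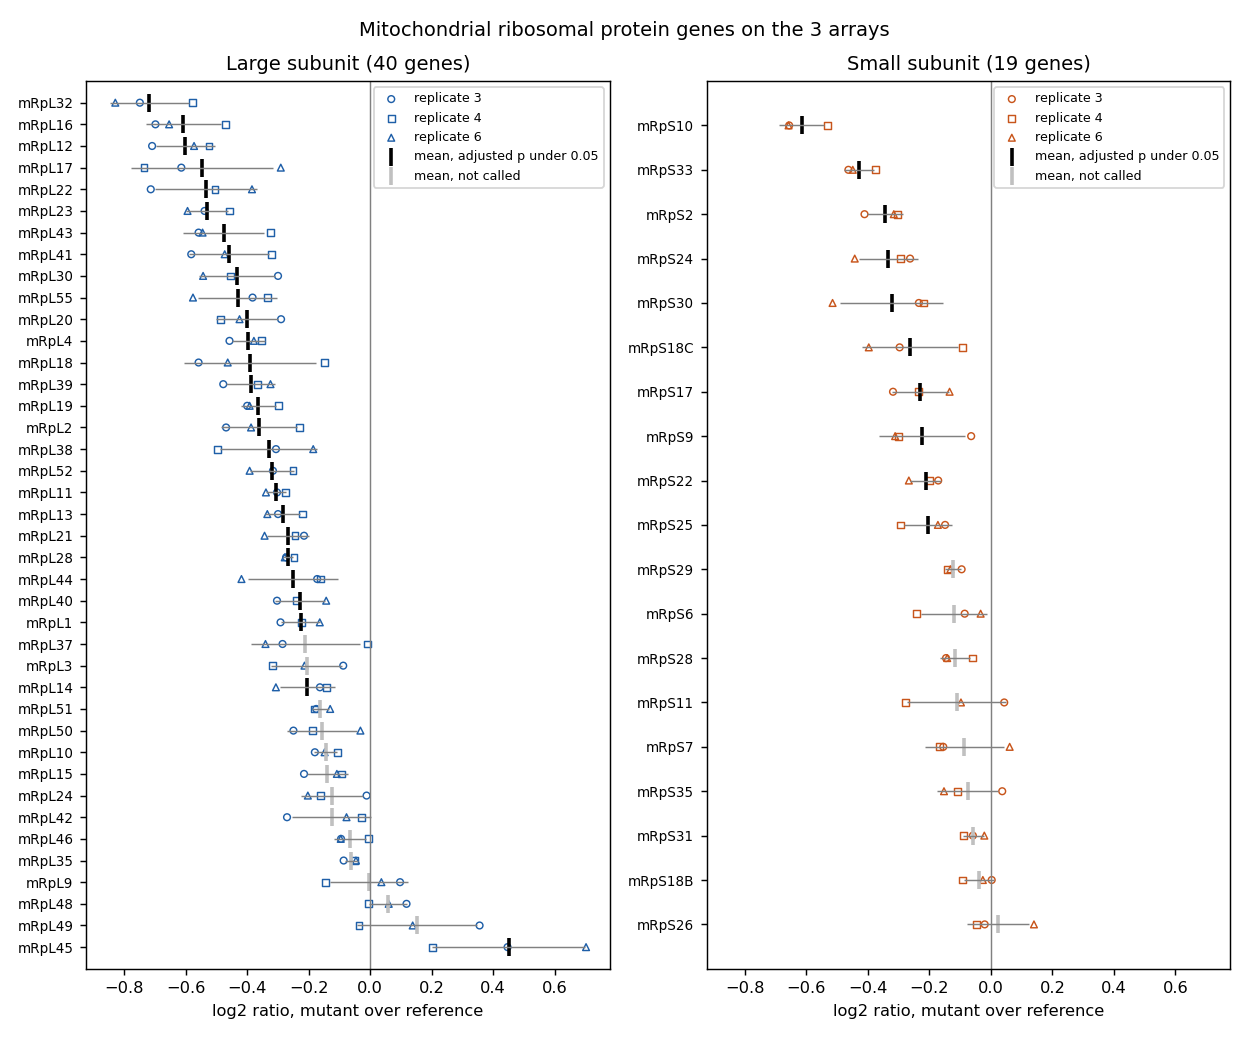
Log2 ratio (mutant over reference, x axis) of each of the 40 large and 19 small subunit genes, 1 row per gene in order of the mean. Open symbols are replicates 3, 4 and 6, grey lines the mean ± SD over the 3 arrays, and the tick marks the mean, black where the adjusted p was under 0.05. The means run from -0.72 for mRpL32 to 0.45 for mRpL45, the member that was higher.

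The shift was present on each array. The 59 genes had medians of -0.27, -0.24 and -0.29 on replicates 3, 4 and 6, while that of all features stayed between -0.0040 and 0.0035. Below 0 there were 52, 58 and 53 genes on replicates 3, 4 and 6. The single genes were less even: replicate 4 gave the highest of the 3 values for 28 genes. The number of calls rested partly on replicate 3, without which 17 members were lower and 0 higher by limma (15.3% and 6.05% of all features), and all 17 were among the 36. Without replicate 4, 30 were lower (23.6% of all features), and without replicate 6, 28 (20.3%). The same 17 genes, 14 of the large and 3 of the small subunit, kept the call whichever array was left out.

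**Figure D2:**
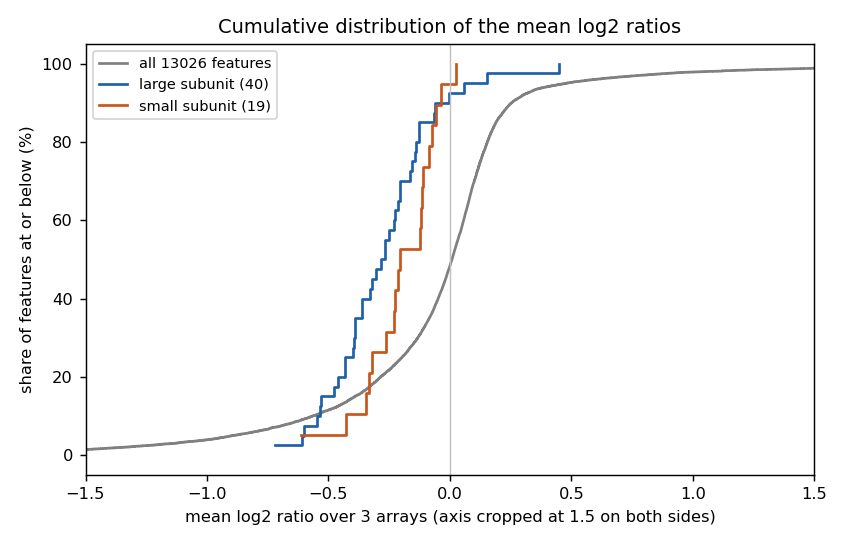
Cumulative share (y axis, %) of features at or below a given mean log2 ratio over 3 arrays (x axis, cropped at 1.5 on both sides) for all 13026 features, the 40 large subunit genes and the 19 small subunit genes. The curves of both subunits lie left of 0 over most of their length, and both are steeper than that of all features.

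Both subunits were on the lower side. Of the 40 large subunit genes 26 were lower, 1 was higher and 13 were not called, and their median was -0.28. Of the 19 small subunit genes 10 were lower, 0 were higher and 9 were not called, and their median was -0.21. None of the small subunit genes was higher at an unadjusted p under 0.05 either, by limma or by the plain one-sample test. The share of all features at an unadjusted p is not given here. The mean of the large subunit genes lay below that of the small subunit genes by 0.11, 0.042 and 0.066 (log2) on replicates 3, 4 and 6. The difference, large minus small, was -0.073 ± 0.035 (SD, n = 3 arrays), the same sign on every array, and no test over the members was made. That SD leaves out the spread among genes, whose means had an SD of 0.22 in the large and 0.16 in the small subunit. The count of small subunit genes depended on single arrays. It fell to 3, 6 and 5 on leaving out replicates 3, 4 and 6 in turn, where the large subunit had 14, 24 and 23. In these fits 15.3%, 23.6% and 20.3% of all features were lower. Without replicate 3 the 3 of 19 small subunit genes were thus near the share of all features.

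Split by protein family, the difference between subunits was larger in the conserved families, without a test. Members numbered like bacterial ribosomal proteins (up to L36 and S21) are called conserved here, and members with higher numbers, most of which have no bacterial counterpart, mitochondria-specific. Of the 33 conserved genes 23 were lower and 0 higher, with a median of -0.27, and 10 did not pass. Of the 26 mitochondria-specific genes 13 were lower, 1 was higher and 12 were not called, and their median was -0.21. The mean of the conserved genes lay below that of the mitochondria-specific genes by 0.13 on replicate 3 and by 0.12 on replicates 4 and 6. Conserved minus specific was -0.12 ± 0.0076 (SD, n = 3 arrays), and -0.098 ± 0.012 without mRpL45, the member that was higher. Within the conserved families, large minus small was -0.11 ± 0.044. Within the mitochondria-specific families it was 0.00048 ± 0.044, and -0.042 ± 0.042 without mRpL45. Within the large subunit, conserved minus specific was -0.15 ± 0.016, and within the small subunit -0.041 ± 0.038. Each SD of a difference is over the 3 arrays and leaves out the spread among genes. The genes' means had an SD of 0.19 in the conserved and 0.21 in the mitochondria-specific families. These differences are descriptions, and none was tested.

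**Figure D3:**
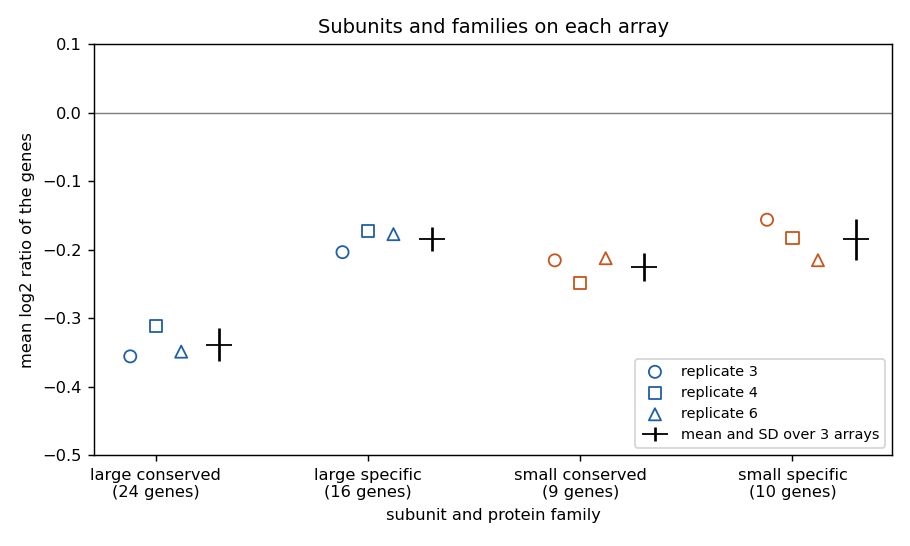
Mean log2 ratio (y axis) of the genes in each combination of subunit and family on replicates 3, 4 and 6 (open symbols), with the mean and SD over the 3 arrays (black). The 24 conserved large subunit genes lie lowest on every array, at -0.36, -0.31 and -0.35, and the other 3 sets lie between -0.25 and -0.16.

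The lowest member was mRpL32, whose product carries a zinc-binding motif and in yeast and mouse is matured by an inner membrane protease before it joins the ribosome. Its log2 ratios on replicates 3, 4 and 6 were -0.75, -0.58 and -0.83, with a mean of -0.72 ± 0.13 (SD, n = 3; limma adjusted p = 2.62e-04), a 1.65-fold lower ratio. All arrays lay clearly below 0. Its locus overlaps CG1750, which had -0.60, 0.0040 and -0.69 on replicates 3, 4 and 6. The mean of CG1750 was -0.43, and it was also called lower (limma adjusted p = 0.0399). Both genes were highest on replicate 4 and lowest on replicate 6. Whether the probe of mRpL32 also detects CG1750 was not tested.

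Among proteins near the site of peptide bond formation, mRpL16, which in bacteria helps place the tRNA in the A site, gave -0.70, -0.47 and -0.65 on replicates 3, 4 and 6, with a mean of -0.61 ± 0.12 (adjusted p = 5.30e-04). mRpL2, whose bacterial homolog is needed for peptidyl transfer, was at -0.47, -0.23 and -0.39, with a mean of -0.36 ± 0.12 (adjusted p = 0.00602), and lost its call without replicate 3. mRpL3, another protein of this region, had -0.088, -0.32 and -0.21. Its mean of -0.21 ± 0.12 just missed the threshold (adjusted p = 0.0511), and it was the member nearest to it from outside. It passed with the arrays scaled to the same spread (24.4% of all features lower), with quantile normalization (24.7%), with robust eBayes (23.5%) and when chemosensory receptor probes set the zero of each array (32.2%).

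Along the tunnel through which the new peptide leaves, 4 of 6 members were lower, 1 was higher and 1 did not pass. These structural groups were put together after the values were seen. mRpL22 and mRpL4 reach into the tunnel wall. mRpL22 gave -0.71, -0.51 and -0.38 on replicates 3, 4 and 6, with a mean of -0.53 ± 0.17 (adjusted p = 0.00169), and mRpL4 gave -0.46, -0.35 and -0.38, with a mean of -0.40 ± 0.054 (adjusted p = 0.00208). mRpL23, which in bacteria sits at the tunnel exit and receives targeting factors, was even across arrays at -0.54, -0.46 and -0.59, with a mean of -0.53 ± 0.068 (adjusted p = 5.86e-04). mRpL17 had the least even values of the members that were lower, with -0.61, -0.74 and -0.29 and a mean of -0.55 ± 0.23 (adjusted p = 0.00337). All arrays of these 4 genes were below 0. mRpL24 did not pass, at -0.13 ± 0.10.

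The opposite direction was seen at the same exit. mRpL45, which in mammals lies beside the tunnel exit and ties the ribosome to the inner membrane, had values of 0.45, 0.20 and 0.70 on replicates 3, 4 and 6. Its mean was 0.45 ± 0.25 (adjusted p = 0.01), a 1.37-fold higher ratio, above 0 on every array, and it had the largest SD of all members. The call was lost without replicate 3 (adjusted p = 0.0787), where the mean was 0.45. The next highest members, mRpL49 at 0.15 ± 0.20 and mRpL48 at 0.057 ± 0.062, did not pass.

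The stalk of the large subunit recruits the translation factors. mRpL12, its mobile protein, which in flies has been tied to growth driven by cyclin D and Cdk4, was at -0.71, -0.52 and -0.57 on replicates 3, 4 and 6, with a mean of -0.60 ± 0.096 (adjusted p = 4.13e-04). mRpL11 at the stalk base was at -0.31 ± 0.032 (adjusted p = 0.00607). mRpL10, which anchors mRpL12, had a mean of -0.15 ± 0.037 that did not pass (adjusted p = 0.0953), with a 95% interval from -0.28 to -0.0061. The partners of the stalk thus gave different sizes, with every array of mRpL12 below every array of mRpL10. The central protuberance, where the large subunit meets the head of the small one, had 3 of 5 members lower (mRpL18 at -0.39, mRpL38 at -0.33 and mRpL40 at -0.23), and mRpL46 and mRpL48 did not pass. mRpL1, which forms the stalk on the other side of the subunit, was at -0.23 ± 0.064 (adjusted p = 0.0252). Of these, mRpL11, mRpL18, mRpL38, mRpL40 and mRpL1 lost their calls without replicate 3, and mRpL40 and mRpL1 also without replicate 4.

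Of the other conserved proteins of the large subunit, mRpL30 was at -0.30, -0.45 and -0.54 on replicates 3, 4 and 6, with a mean of -0.43 ± 0.12 (adjusted p = 0.0027), and mRpL20, an assembly protein in bacteria, was at -0.40 ± 0.10 (adjusted p = 0.00299). Of the mitochondria-specific ones, mRpL43 gave -0.56, -0.32 and -0.55, with a mean of -0.48 ± 0.13 (adjusted p = 0.00189). mRpL41 gave -0.58, -0.32 and -0.47, with a mean of -0.46 ± 0.13 (adjusted p = 0.00224), and mRpL55 gave -0.38, -0.34 and -0.58, with a mean of -0.43 ± 0.13 (adjusted p = 0.00288). These 5 genes were below 0 on every array and lost no call when an array was left out. The 26 large subunit genes called lower reached from -0.72 to -0.20, and the 13 that did not pass from -0.21 to 0.15.

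In the small subunit, mRpS10, a protein of the head, was the lowest member. It gave -0.66, -0.53 and -0.66 on replicates 3, 4 and 6, with a mean of -0.61 ± 0.073 (adjusted p = 2.98e-04), a 1.53-fold lower ratio. mRpS33, a mitochondria-specific protein of the head, followed at -0.46, -0.37 and -0.45, with a mean of -0.43 ± 0.048 (adjusted p = 0.00138). Both were even across arrays, and no other small subunit gene came as low on average. The 8 members of the head, 4 of them lower, spread widely. mRpS24, which despite its number belongs to the bacterial S3 family in mammals, gave -0.26, -0.30 and -0.44, with a mean of -0.33 ± 0.096 (adjusted p = 0.00658). It was the third small subunit gene, with mRpS10 and mRpS33, that was called lower whichever array was left out. mRpS9 was lower at -0.23 ± 0.14 (adjusted p = 0.0471), the called member nearest the threshold. It lost its call whichever array was left out. mRpS7, mRpS29, mRpS31 and mRpS35 did not pass, with means from -0.12 to -0.057.

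mRpS2 gave -0.41, -0.30 and -0.32 on replicates 3, 4 and 6, with a mean of -0.34 ± 0.058 (adjusted p = 0.00416), but lost its call without replicate 3. mRpS30, whose mammalian homolog has been placed in the large subunit, was at -0.32 ± 0.17 (adjusted p = 0.0162), a call lost without replicate 3 or without replicate 6. With mRpS30 counted there, large minus small was -0.080 ± 0.036. Besides mRpS18C, described with its paralog, the remaining lower members were mRpS17, mRpS22 and mRpS25, between -0.23 and -0.21. mRpS22 and mRpS25 lost their calls whichever array was left out, and mRpS17 without replicate 3 or without replicate 4.

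The mRpS18 genes are paralogs of 1 bacterial family, and 2 of them were measured. mRpS18C was at -0.30, -0.091 and -0.40 on replicates 3, 4 and 6, with a mean of -0.26 ± 0.16 (adjusted p = 0.0322), a call lost without replicate 3 or without replicate 6. mRpS18B was at 0.0027, -0.091 and -0.026, with a mean of -0.038 ± 0.048 and a 95% interval from -0.18 to 0.10 (adjusted p = 0.645). The difference between them was not tested, and their values met on replicate 4. mRpS6 and mRpS11, which border S18 on the platform of bacterial ribosomes, did not pass, at -0.12 ± 0.11 and -0.11 ± 0.16. mRpS18A was not analysed here.

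The genome is compact at these loci, and 35 of the 59 genes overlap another protein-coding gene in the annotation. The probe sequences were not used here, so a probe that also detects the neighbour cannot be recognised. Of the 35, 23 were lower and 0 higher, with a median of -0.26. Of the 24 that overlap no other such gene, among them mRpS10, mRpL12, mRpL22 and mRpL45, 13 were lower and 1 was higher, with a median of -0.22. Of 33 overlapping partners that were tested, 12 were lower and 1 was higher (23.7% and 13.4% of all features). The partners arm of mRpL16, CG34263 of mRpL17 and mib1 of mRpS31 were not tested. Several partners were further from 0 than the member: sigmar, which overlaps mRpL43, was at -1.69, Ufd1 beside mRpL2 at -0.96 and CG8993 beside mRpL23 at -0.87. The partners of mRpL4, mRpL41 and mRpS33 were at 0.010, 0.075 and -0.069 and did not pass. mRpL18 shares its locus with ox, a subunit of the respiratory chain, which was at -0.50.

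Other genes that serve mitochondrial protein synthesis were mixed. bonsai, a small subunit protein without an mRp symbol, was at -0.31 ± 0.046 (adjusted p = 0.00652), and missed the threshold without replicate 3 (adjusted p = 0.0571 for bonsai, limma). Of 8 mitochondrial translation factors, 5 were lower and 2 higher (23.7% and 13.4% of all features), with a median of -0.24. The elongation factor genes mEFTu1 at -0.50 ± 0.12, mEFTs at -0.46 ± 0.15 and mEFG1 at -0.26 ± 0.056 and the initiation factor gene mIF3 at -0.26 ± 0.068 were lower. mEFTu2 and mRF1, a release factor gene, were higher at 0.22 and 0.18, with adjusted p = 0.0488 and 0.0491, and neither call was made with each probe tested on its own (13.2% of all probes higher). Without replicate 3, 2 translation factors were lower and 0 higher (15.3% and 6.05% of all features).

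The aminoacyl-tRNA synthetases of mitochondria, which charge the tRNAs for this ribosome, gave small ratios. By limma 0 of 12 were called in either direction, 3 had an unadjusted p under 0.05, all on the lower side, and the plain one-sample test gave 0 at an unadjusted p under 0.05. No share of all features at an unadjusted p is given here. Their median was -0.072, from -0.21 to 0.018, and it moved with the centring. It was -0.011 with the values as deposited and -0.17 when chemosensory receptor probes set the zero of each array. With that zero 4 of the 12 were lower, a share near the 32.2% of all features called lower. Of 12 genes of mitochondrial DNA maintenance and transcription, 3 were lower and 0 higher, a share near the 23.7% of all features called lower. Their median was -0.087, and it was -0.026 with the values as deposited, -0.19 on receptor centring and -0.055 without replicate 6. The 3 genes were TFAM, which packages mitochondrial DNA and starts its transcription, at -0.36 ± 0.078, mtSSB, which binds single-stranded DNA at replication, at -0.28 ± 0.059, and PolG2, the accessory subunit of the polymerase, at -0.25 ± 0.062. No call of this list was left without replicate 3. With the values as deposited 3 genes were higher (23.3% of all features), and 2 with the arrays scaled (14.6%) or quantile normalized (14.9%).

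Of 14 genes for protein import and chaperones 8 were lower and 0 higher (23.7% and 13.4% of all features), with a median of -0.23. Without replicate 3, 3 of the 14 were lower (15.3% of all features). Tim9a, a carrier of the intermembrane space, was at -0.58 ± 0.085, Tom7 and Tom70 of the outer membrane translocase at -0.45 ± 0.018 and -0.39 ± 0.12, and the chaperonin gene Hsp60A at -0.43 ± 0.081. Of the 4 regulators listed, 1 was tested. Ets97D, which encodes the fly homolog of a subunit of nuclear respiratory factor NRF-2, was at -0.22 ± 0.075 (adjusted p = 0.0297), a call lost without replicate 3 or without replicate 6. The 13 protein-coding genes of mitochondrial DNA had no value here, so the products of this ribosome could not be set beside it.

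**Figure D4:**
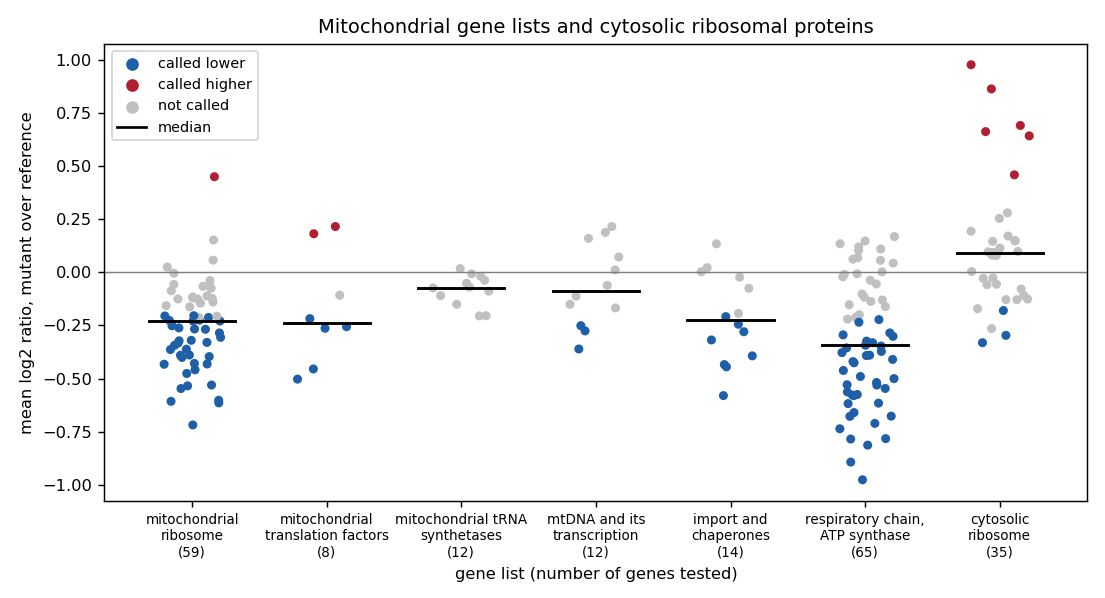
Mean log2 ratio over 3 arrays (y axis) of each tested gene in 7 lists, with the number of genes in brackets. Each point is a gene, blue where called lower, red where called higher and grey otherwise, and black lines are the medians, from -0.34 for the respiratory chain and ATP synthase to 0.093 for the cytosolic ribosome.

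The nuclear genes of the respiratory chain and ATP synthase were listed by symbol and include the partners of the proteins made by this ribosome. The list also holds genes whose symbol carries an L suffix, of which only UQCR-14L, at -0.39, was called. Of the 65 genes tested 40 were lower and 0 higher by limma (23.7% and 13.4% of all features), with a median of -0.34. At an unadjusted p under 0.05, 1 was higher by limma and 2 by the plain one-sample test, with no share of all features given for that limit. With the values as deposited 3 were higher (23.3% of all features), and 1 without replicate 4 (11.9%). The lowest were COX4 at -0.98 ± 0.097, ATPsynG at -0.89 ± 0.10, ATPsynC at -0.81 ± 0.17 and ATPsynE at -0.79 ± 0.083. Their medians on replicates 3, 4 and 6 were -0.27, -0.43 and -0.30, lowest on replicate 4, while the mitochondrial ribosomal proteins had -0.27, -0.24 and -0.29. Cytosolic ribosomal protein genes were listed by symbol alone, which also took in -like symbols and paralogs. Of 92 symbols listed 35 were tested, of which 3 were lower and 6 higher, with a median of 0.093. Over all features 23.7% were lower and 13.4% higher, so the 6 of 35 were near the share of all features. RpL24-like at 0.98 and RpL7-like at 0.64 were among the 6, and the 3 were RpL34a, RpS5b and RpS28a. Whether every listed gene encodes a protein of the cytosolic ribosome was not examined. This median rested on single arrays and on the centring. It was 0.072, -0.10 and 0.19 on replicates 3, 4 and 6, 0.15 without replicate 4 and 0.014 without replicate 6, and it turned to -0.0063 when chemosensory receptor probes set the zero of each array. Without replicate 4, 10 were higher (11.9% of all features). The difference between the ribosomes was not tested.

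Markers of other cells were read on the same arrays. Of the fat body list 3 of 6 were tested and all 3 were lower (Lsp2 at -0.92, Fbp1 at -1.01 and Fbp2 at -0.46), and of the visceral muscle list 4 of 9 were tested, 1 was higher (up at 0.40) and 0 were lower. Of 5 hemocyte markers 2 were lower and 1 was higher, of 5 Malpighian tubule markers 1 was lower and 1 higher, of 2 salivary gland markers 1 was higher, and both tested markers of midgut progenitors were lower (E(spl)m3-HLH at -0.48 and esg at -0.39). The calls of Fbp2, up and esg were lost without replicate 3. Beside these counts, 23.7% of all features were lower and 13.4% higher. Levels are not known from ratios, and fewer cells of a type cannot be told apart from less RNA of a marker per cell. The part of these cells in the ratios of the mitochondrial ribosome was not tested.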

How the data were processed

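The authors deposited a log2 ratio for each probe on each array. Per the labels, amplified RNA of the mutant was read at 635 nm and the reference at 532 nm. The sources used here do not give scanner, background correction or spot filter, and signal over background is unknown. Values were centred on the median of each array, probes with 1 gene symbol were averaged per gene, and only features complete on the 3 arrays entered the test. Symbols came from the platform annotation and lists were resolved through RefSeq's gene table (assembly Release 6 plus ISO1 MT). A two-sided limma test (version 3.58.1, R 4.3.3, eBayes, 6.89 degrees of freedom) set each mean against 0, with Benjamini-Hochberg adjustment over 13026 features. The reference counts as 1 control sample, whose spread is left out. With 3 arrays their number limits the precision. On simulated data of 13026 features with 200 changed, 70.0% of changes of 0.3 (log2), 94.0% of 0.5 and 100% of 1 were recovered, with 19 false calls. The simulation changed a far smaller share of features than the 37.0% called here and held no error of a shared reference. Its rates therefore do not carry over to these data.

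The members, lists and tests were chosen with earlier results of these data known. Named were all members called higher, the 12 lowest large and 10 lowest small subunit members called lower with the same sign on all arrays, those nearest the threshold, the largest SD, the mRpS18 paralogs and up to 4 called genes per other list; others were named after their values were seen. Planned promoter motifs were not analysed here. Alternatives were other centring, scaling, quantile normalization, single probes, robust eBayes, a plain one-sample test, stricter thresholds, features on 2 arrays and leaving out each array. Python 3.11.15, pandas 2.3.3, numpy 2.4.6 and matplotlib 3.10.9 were used for the rest.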

Additional observations from a re-analysis of the deposited data

How the results depend on the processing

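None of the 59 mitochondrial ribosomal protein genes changed direction while called under any alternative, but the number of calls moved. At an adjusted p under 0.01 it went from 36 lower and 1 higher to 22 and 0 (4 lower in the small subunit and 0 higher in the large). Of all features 17.0% were lower and 6.91% higher there. With a change of at least 1.5-fold it went to 4 and 0 (3 large, 1 small), beside 9.50% and 4.11% of all features. A plain one-sample test, with each gene's own variance over 3 arrays, called 0 in either direction and in either subunit. That test called 4 of all 13026 features (0.0307%), so a 0 says little about these 59 genes. At an unadjusted p under 0.05 it gave 32 of them lower and 0 higher. The share of all features at that unadjusted limit is not given here, so this count has no background beside it. Leaving out 1 array in turn gave 17 to 30 lower and 0 to 1 higher, 14 to 24 lower and 0 to 1 higher in the large and 3 to 6 lower in the small subunit, a median of -0.26 to -0.23, a large minus small difference of -0.088 to -0.054 and a conserved minus specific difference of -0.13 to -0.12. In those fits 15.3% to 23.6% of all features were lower and 6.05% to 11.9% higher. The values as deposited gave 27 members lower, 5 of them in the small subunit, with 2729 of all 13026 features lower, and a median of -0.17. Centring on chemosensory receptor probes, whose median lay at 0.088 to 0.107 above the array medians, gave 47 members lower. Of all features 32.2% were lower with that zero, and the median of the members was -0.33. Without mRpL45, a choice made after seeing the data, conserved minus specific was -0.098. Of the members that overlap no other gene, also chosen later, 54.2% were lower, against 61.0% of all. The median of the cytosolic ribosomal proteins turned to -0.0063 on receptor centring. The differences between subunits and families do not depend on the centring, by construction. The cause of the loss of calls without replicate 3 was not tested. No paired analysis was possible because there is 1 group of samples, hybridised against a common reference.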

Other observations

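mRpL54, which had no value on replicate 3, was at -0.45 on replicate 4 and -0.57 on replicate 6, with a mean of -0.51. In the limma fit of the 13210 features with a value on at least 2 arrays its adjusted p was 0.00414. The probe that the annotation assigns to both mRpL47 and Rlb1 gave -0.24, -0.36 and -0.25 on replicates 3, 4 and 6, and the share of each gene in it is not known. Both sets of values lie within the range of the large subunit genes that were lower.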
